A study of Mus musculus with 9 samples.

Results

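The Fanconi anaemia and homologous recombination genes examined here, 10 in number, were measured in myeloid cells from the spleens of tumour-bearing and healthy mice. They are Bard1, Brca1, Brca2, Brip1, Fancd2, Fanci, Fancm, Rad54l, Rad51ap1 and Blm, and they were taken by symbol from the authors' deposited table of significant changes. These 10 genes account for 12 of the 964 rows of that table, because Bard1 has 3 rows, and the array's value table holds 31648 rows in all. The rows entered the authors' table because the groups compared here differed, so the group differences below describe the 10 genes and are given with no test. Of all rows on the array, 1.62% are in the higher part of the authors' table (513 rows) and 1.43% in the lower part (451 rows), 3.05% together. Rows outside that table carry no gene name in the files used here. Other genes of the pathways, such as Palb2 and Fanca, and any further rows of the 10 genes were therefore not analysed here.

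Cells that carry both CD11b and Gr1 were sorted by flow cytometry from spleen, and their amplified RNA was hybridised to Affymetrix expression arrays. Neutrophils carry both surface proteins, as do inflammatory monocytes and the less mature cells of both lineages. The 6 tumour-bearing samples each came from a single L2-Cre;p120f/f mouse, in which Cre removes both floxed copies of p120 catenin (Ctnnd1) in oral and oesophageal squamous epithelium. The 3 control samples were pools, each combining cells of 3 healthy animals of genotype L2-Cre;p120+/f, which carry the same Cre and 1 floxed copy. The strain is labelled as a mixed C57BL/6x129 background. Further label fields (an embryonic age, forelimb material, a genotype field) disagree with the titles and were set aside, so the age of the mice is not known here. Because tumour, genotype and pooling all differ between the groups, their parts in a difference cannot be told apart. The defining markers of the sort, Itgam for CD11b and the Ly6g and Ly6c genes for Gr1, have no named row and were not analysed here.

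The Fanconi anaemia pathway repairs DNA crosslinks that join both strands of the helix. Fancm recognises a replication fork stalled at a crosslink, a core complex then attaches ubiquitin to the pair Fancd2 and Fanci, and nucleases cut the crosslink out. The resulting break is mended by homologous recombination, in which Brca1 with Bard1, Brip1 and Brca2 act on the broken ends, Rad54l and Rad51ap1 promote invasion of the sister DNA, and Blm takes the joined molecules apart. In many tissues these genes are expressed mainly in dividing cells, and the sister DNA that serves as template exists only once it has been copied.

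The promoters of these genes are shown first, because sequence is a property that the choice of genes did not use. RefSeq promoter windows (GRCm38.p6), each 250 bases before to 50 bases after a gene's start, matched 9 of the 10 genes, and Fancd2 has no entry. The windows were searched on both strands for the E2F site (TTTCCCGC, TTTGGCGC, TTTCGCGC or TTTGCCGC), which binds the cell cycle factors of the E2F family, and for the CCAAT box, which binds the factor NF-Y. The stretches below run 5′ to 3′ on the strand of the gene, lie before every annotated start of it and outside neighbouring genes, and carry the E2F site and the CCAAT box (ATTGG on the other strand) in capitals. Bard1 is shown for its E2F site, and Brca1, Brip1, Rad54l and Blm are shown as 4 of the 6 genes with a CCAAT box.
Bard1, chr1:71103142-71103222, minus strand: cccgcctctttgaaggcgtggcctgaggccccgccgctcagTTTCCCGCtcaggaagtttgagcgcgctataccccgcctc
Brca1, chr11:101551956-101552106, minus strand: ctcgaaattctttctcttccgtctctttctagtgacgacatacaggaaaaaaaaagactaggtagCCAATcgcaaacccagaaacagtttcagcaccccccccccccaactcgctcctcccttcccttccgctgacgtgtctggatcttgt
Brip1, chr11:86201216-86201359, minus strand: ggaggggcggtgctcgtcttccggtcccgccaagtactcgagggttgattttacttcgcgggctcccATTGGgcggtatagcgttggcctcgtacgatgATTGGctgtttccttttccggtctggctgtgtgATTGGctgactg
Rad54l, chr4:116123701-116123839, minus strand: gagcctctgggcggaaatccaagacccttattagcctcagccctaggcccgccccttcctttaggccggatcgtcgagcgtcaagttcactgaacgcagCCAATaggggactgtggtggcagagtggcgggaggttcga
Blm, chr7:80535149-80535248, minus strand: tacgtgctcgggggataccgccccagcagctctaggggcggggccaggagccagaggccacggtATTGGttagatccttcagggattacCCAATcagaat

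The CCAAT box was the element found in the most of these promoters together with the GC box. It was present in 6 of the 9 genes (Blm, Brca1, Brip1, Fancm, Rad51ap1 and Rad54l), against 42.3% of 17492 protein-coding genes and 37.4% of all 32851 windows. A gene was counted where any of its windows held the letters, so shares of windows are in a different unit from counts of genes. The Brip1 window holds the CCAAT box 3 times, with the first base at -99, -67 and -34 from the start. The E2F site was present in 2 of the 9, at -209 in Bard1 and at -168 in Brca2, against 3.29% of protein-coding genes and 2.26% of all windows. With the shorter core TTCCCGC, chosen after the sequences were seen, the count was 5 of the 9, against 6.84% of protein-coding genes, 15.9% of the other higher genes of the authors' table and 3.30% of the lower genes. The GC box GGGCGG, bound by Sp family factors, was present in 6 of the 9 (49.2% of protein-coding genes, 35.7% of windows). The cell cycle element CHR (TTTGAA or TTCGAA) was present only in the Bard1 window among the 9, at -242 (20.2% of protein-coding genes, 19.2% of windows). The NRF1 site was found in 0 of the 9, against 1.47% of protein-coding genes and 0.971% of windows.

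Among the other genes of the authors' table, the same elements were more frequent in those that were higher than in those that were lower. The E2F site was present in 12.1% of 372 other higher genes with a window and in 1.47% of 273 lower genes. The CCAAT box was present in 54.3% and 37.7%, the CHR element in 30.9% and 20.1%, and the GC box in 66.1% and 50.2%. A match describes letters in the window and is not evidence of binding, and these shares are given with no test.

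**Figure D1:**
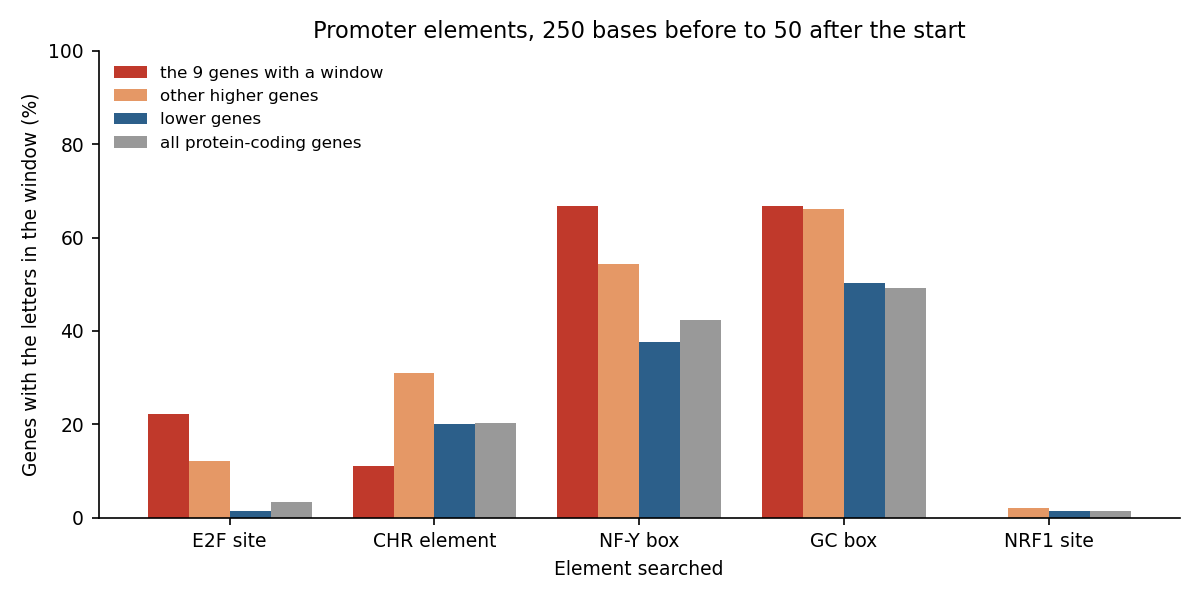
Percentage of genes (y axis) whose RefSeq promoter window holds each element (x axis; NF-Y box is the CCAAT box), for the 9 genes with a window, the 372 other higher genes and 273 lower genes of the authors' table, and 17492 protein-coding genes. The E2F bar of the 9 genes stands for 2 genes, and those of the NF-Y and GC boxes for 6 each.

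All 10 genes were higher in the cells of tumour-bearing mice, by 1.33 to 2.50 on the log2 scale with a median of 1.76, which corresponds to 2.52-fold to 5.67-fold. The median difference was 1.38 over the 501 other higher rows of the authors' table and 0.02 over all rows. In all 12 rows the 6 mice lay above the 3 pools, as they did in 15.4% of all rows. The authors' selection makes this close to fixed for the 12 rows, so nothing is read from it. In sorted bulk RNA, a larger share of cells that express a gene and more of its RNA per cell cannot be told apart.

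Fancm, the translocase that anchors the Fanconi core complex to DNA, ranged from 6.93 to 7.60 among the 6 mice (median 7.14). The pools stood at 5.70, 5.49 and 5.78, so the lowest mouse was 1.15 above the highest pool. The difference was 1.52 ± 0.15 (SE of the limma fit), 2.86-fold.

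Fancd2 and Fanci form the clamp that is ubiquitinated at a crosslink. Fancd2 ranged from 7.88 to 8.65 among the mice (median 8.13), with pools at 6.13, 5.92 and 6.30. Its difference of 2.10 ± 0.17, 4.29-fold, was the second in size among the 10 genes. Fanci ranged from 7.38 to 7.94 (median 7.49), against 6.06, 5.99 and 6.06 in the pools. Its difference was 1.54 ± 0.13, 2.90-fold, and the pools of Fanci were the closest together of the 10 genes (SD 0.04, n = 3). For both partners mouse 1 was highest and mouse 2 next.

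Brip1, the helicase also known as FANCJ that binds Brca1, ranged from 8.32 to 8.83 among the mice (median 8.43). The pools stood at 6.83, 6.49 and 6.81, and the difference was 1.79 ± 0.12, 3.45-fold. The lowest mouse was 1.49 above the highest pool.

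Brca1 and Bard1 together form a ubiquitin ligase that promotes the trimming of broken ends. Brca1 ranged from 7.73 to 8.26 among the mice (median 7.88), with pools at 6.32, 5.82 and 6.17 and a difference of 1.84 ± 0.16, 3.58-fold. Mice 3 and 6 had the same Brca1 value to 5 decimals. Bard1 was represented by 3 rows, and the row with the highest mean stands for the gene. That row ranged from 11.41 to 11.83 among the mice (median 11.52), against 9.42, 8.61 and 9.12 in the pools.

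The difference of Bard1 in this row was 2.50 ± 0.17, 5.67-fold, the largest of the 10 genes. Its pools were the most spread (SD 0.41, n = 3), and leaving out control pool 2 brought the difference to 2.28 while leaving out control pool 1 raised it to 2.69. The other Bard1 rows differed by 2.58 ± 0.20 (mice 6.85 to 7.84, pools 4.82, 4.49 and 4.59) and by 2.00 ± 0.13 (mice 8.43 to 8.94, pools 6.77, 6.41 and 6.66). All 3 rows carry the same RefSeq transcript and separate the groups, which the authors' selection of each row made close to fixed. Any further Bard1 row outside the authors' table would carry no name and was not seen. The size of the difference ranged from 3.99-fold to 5.97-fold between the 3 rows. The row at 2.58 had a control mean of 4.63, below the median of every array, so the size of its difference is uncertain.

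Brca2, a recombination mediator also known as FANCD1, ranged from 6.92 to 7.54 among the mice (median 7.11). The pools stood at 5.82, 5.85 and 5.72. The difference was 1.38 ± 0.14, 2.60-fold. In contrast to the other 9 genes, pool 2 was the highest of the pools for Brca2 and not the lowest, though the 3 pools lay within an SD of 0.07. The control means of Brca2 (5.80) and Fancm (5.66) were also below every array median (5.92 to 5.99), and no background call was made for any row.

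Rad51ap1 and Rad54l act during strand invasion. Rad51ap1, which stimulates the joining of molecules, ranged from 7.57 to 7.90 among the mice (median 7.64), with pools at 6.58, 6.10 and 6.41. It had the smallest difference of the 10 genes, 1.33 ± 0.11 or 2.52-fold, and the smallest spread among mice (SD 0.13, n = 6). Without control pool 2 the difference was 1.20. Rad54l, a translocase that remodels the joined DNA, ranged from 7.86 to 8.51 (median 7.99), against 6.44, 6.11 and 6.45, a difference of 1.77 ± 0.17, 3.40-fold. Blm, the helicase mutated in Bloom syndrome that dissolves joined molecules, ranged from 7.71 to 8.27 (median 7.85), against 6.21, 5.96 and 6.27, a difference of 1.74 ± 0.13, 3.35-fold.

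**Figure D2:**
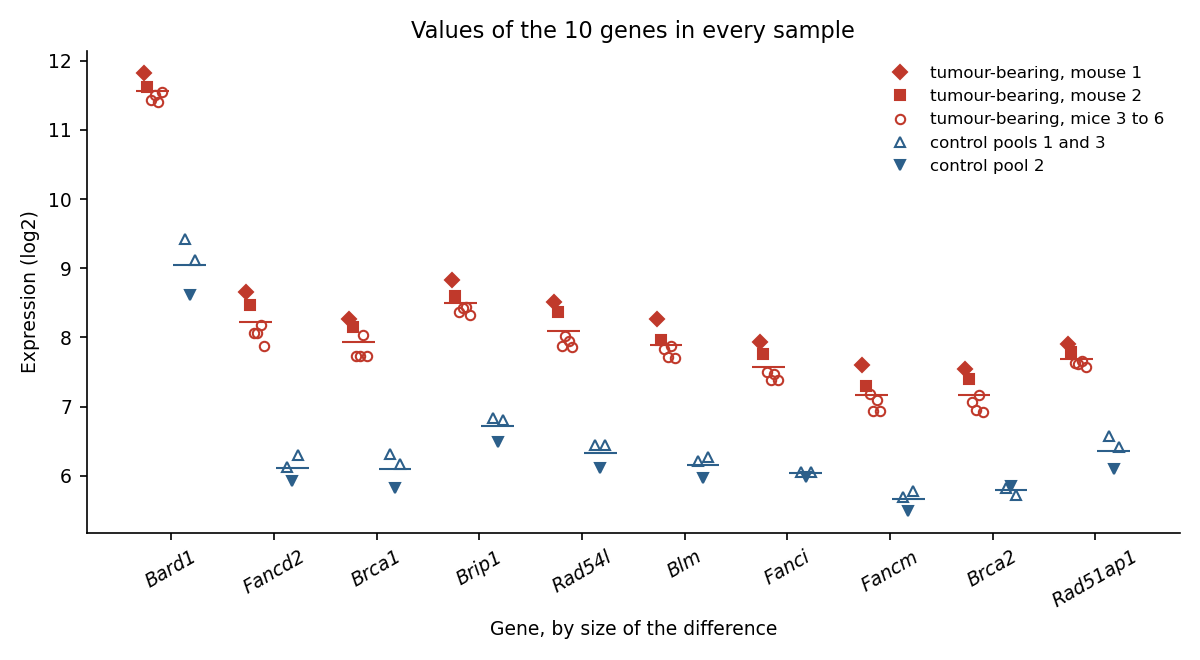
Log2 expression (y axis) of the 10 genes (x axis, ordered by the size of the difference) in each of the 6 tumour-bearing mice (red) and 3 control pools (blue), with lines at the group means and the row of highest mean for Bard1. Mouse 1 is the highest sample for each gene, control pool 2 is the lowest for every gene but Brca2, and levels of different genes are not comparable because they come from different probes.

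In order of the difference the genes ran Bard1, Fancd2, Brca1, Brip1, Rad54l, Blm, Fanci, Fancm, Brca2 and Rad51ap1. Bard1 (2.34 to 2.67 as the difference ± 1 SE) did not overlap the next gene, Fancd2 (1.93 to 2.27), in the row that stands for it. The Bard1 row at 2.00 ± 0.13 was below Fancd2 and overlapped it. The ranges also overlapped without control pool 2 (Bard1 2.28 ± 0.12, Fancd2 2.00 ± 0.20) and without control pool 3 (2.54 ± 0.20 and 2.19 ± 0.20). They did so as well without mouse 6 (2.50 ± 0.18 and 2.17 ± 0.16) and under the replicate block (2.57 ± 0.18 and 2.28 ± 0.21). From Fancd2 downwards each gene overlapped its neighbour in this order within 1 SE. The smallest member difference, 1.33, was above the edge of the authors' table, where the smallest rise is 1.00. Rows just outside that edge have no name here. Among the 513 higher rows the 12 rows ranked from 14 (the Bard1 row at 2.58, of uncertain size) to 279 (Rad51ap1). The row that stands for Bard1 ranked 16.

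The 10 genes varied together among the mice. The authors' p-value uses the spread within groups, so the size of that spread was part of how the rows were chosen, and it is given as a description. Which mouse was high or low was no part of the rule. Mouse 1 was highest in all 12 rows, and in the 10 rows that stand for the genes mouse 2 was second. The mean deviation of the 10 genes from the group mean was 0.35 in mouse 1, 0.16 in mouse 2, -0.11 in mouse 3, -0.15 in mouse 4, -0.05 in mouse 5 and -0.20 in mouse 6. Mouse 1 was also highest in 65.1% of the 501 other higher rows, in 4.21% of the 451 lower rows and in 21.5% of all rows. In the controls, pool 2 was lowest for 9 of the 10 genes, with a mean deviation of -0.20 against 0.12 in pool 1 and 0.08 in pool 3. Pool 2 was lowest in 76.6% of the other higher rows and 35.0% of all rows.

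Across the 6 mice the 45 pairs of genes had correlations (Pearson's r) of 0.69 to 0.99, with a median of 0.94, given as a description. The lowest was between Brca1 and the row that stands for Bard1, its partner in the ubiquitin ligase (r = 0.69). The highest was between Fanci and Rad51ap1 (r = 0.99). That Bard1 row followed the mean of the other 9 genes least closely (r = 0.82), while Rad51ap1 had r = 1.00 with the mean of its other 9, to 2 decimals. These values belong to that row and not to Bard1 as a gene, because correlations of its other rows with the other 9 genes were not computed. The 3 Bard1 rows correlated with each other at 0.75 to 0.90. Brca1 differed from the rest in mouse 5, where it was 0.09 above its group mean while the other 9 genes were below theirs. The SD of these genes among mice was 0.13 to 0.29 (median 0.23), against a median of 0.17 for the other higher rows and 0.11 for all rows.

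**Figure D3:**
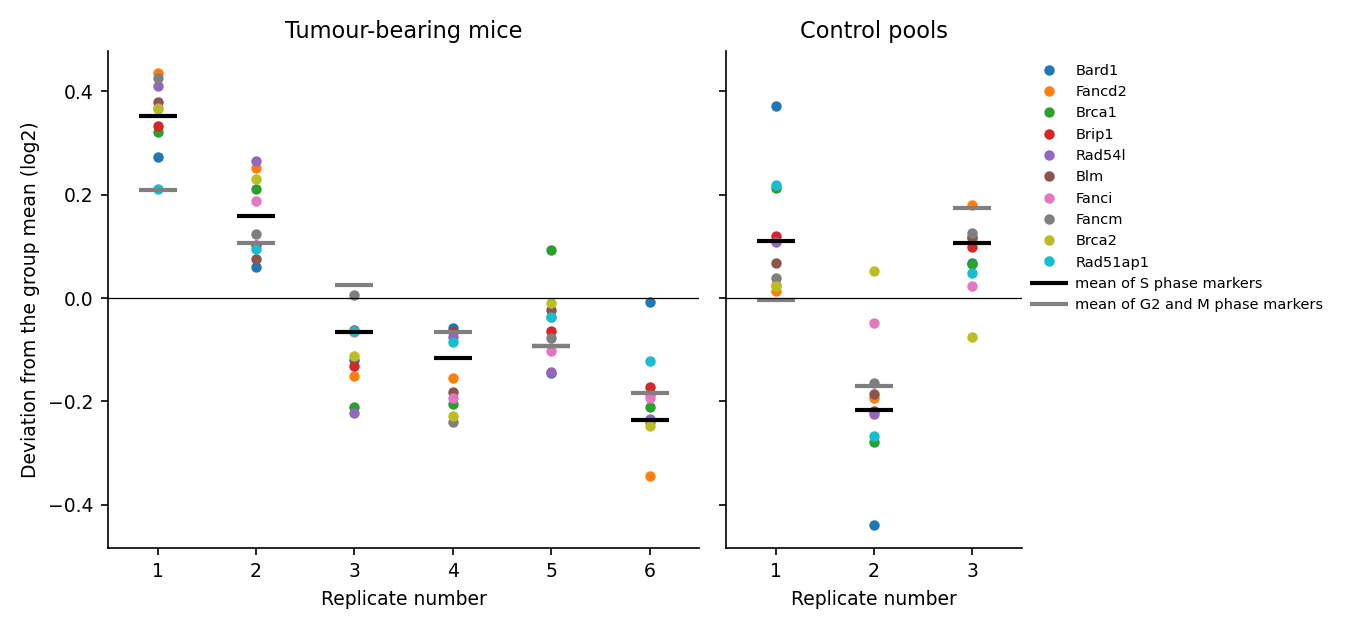
Deviation of each of the 10 genes from its group mean (y axis, log2) in the 6 tumour-bearing mice and the 3 control pools (x axis, replicate number), with bars for the mean of the named S phase markers (black) and of the G2 and M phase markers (grey). All 10 genes are above their mean in mice 1 and 2, and below it in mice 4 and 6, and 9 of 10 are below it in control pool 2.

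Named markers of dividing cells moved with the 10 genes, between groups and among mice. The authors chose each named marker on this contrast, so a difference between groups was fixed in advance and nothing is read from it. Of the 964 rows so chosen, 513 were higher. Of 20 markers of S phase, when DNA is copied, 14 were named and all 14 were higher (median difference 1.74). Their mean level ranged from 8.16 to 8.75 in the mice and from 6.49 to 6.82 in the pools. All 20 markers of G2 and M phase were named and higher (median 2.01), at 9.14 to 9.54 against 7.14 to 7.49. Mouse 1 was the highest for 14 of the 14 S phase markers and for 16 of the 20 G2 and M phase markers. Over the 6 mice the mean of the 10 genes had r = 0.99 (Spearman's rho 0.94) with the mean of the S phase markers, and r = 0.79 without mice 1 and 2, which lay farthest from the median. With the G2 and M phase markers r was 0.91 (rho 0.83), and 0.74 without mice 1 and 6. These points share arrays and scaling, and the part of cell division in the differences of the 10 genes was not tested.

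Markers of cell identity moved as well. The primary granule list holds 8 genes. Neutrophil precursors make these granules, but not every gene on the list encodes a granule protein (Gfi1 encodes a transcription factor). Of the 8 genes, 6 were named and all were higher (median 3.63), with mean levels of 10.76 to 11.53 in mice and 7.49 to 8.09 in pools. Over the mice their mean had r = 0.84 with the 10 genes (rho 0.94), and r = 0.94 without mice 1 and 6. The secondary granule list, for granules made at a later precursor stage, holds 9 genes. Of these, 2 were named and both were higher (Fcnb 1.90 and the transcription factor gene Cebpe 1.20), at 11.11 to 11.38 in mice against 9.52 to 9.80 in pools. The mature neutrophil list had 5 named genes of 12, each lower (median -2.13), at 8.94 to 9.83 in mice against 11.39 to 11.61 in pools. The monocyte and macrophage list likewise had 5 of 12, each lower (median -1.90), at 8.54 to 9.05 against 10.44 to 10.51. The mean of the mature neutrophil genes had r = -0.54 with the 10 genes (rho -0.14) and that of the monocyte markers r = -0.61 (rho -0.71), and without the 2 farthest mice these were 0.42 and -0.05. Of the other lists, all 3 named dendritic cell markers of 8 and Cd22, the only named one of 9 B cell and plasma cell markers, were lower. Myb, the only named one of 8 stem and progenitor markers, was higher by 1.61. Lists with 1 named gene in the remaining lineages were erythroid (Tfrc, 1.21), platelet (Thbs1, -1.21) and basophil, mast cell and eosinophil (Ms4a2, 1.46), and of 10 T and natural killer cell markers 0 were named. The authors chose every named marker on this contrast, no value in the tables is 0, and the part of cell composition in the differences of the 10 genes was not tested.

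The 5 other genes of the authors' table whose deviations over all 9 samples were most like the mean of the 10 genes were Rfc1 (r = 0.990), Pola1 (0.987), Pola2 (0.986), Ncapd3 (0.985) and Dtl (0.984). Rfc1 encodes the large subunit of the clamp loader of replication, and Pola1 and Pola2 encode subunits of the polymerase that starts each new strand. Ncapd3 belongs to condensin, and Dtl is a substrate adaptor that directs the destruction of replication factors. These genes were higher by 1.11 ± 0.11, 1.49 ± 0.15, 1.04 ± 0.15, 1.55 ± 0.12 and 1.95 ± 0.17. The median r was 0.77 over the 475 other higher genes and -0.23 over the 410 lower genes.

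Beyond the 10 genes, the 8 repair lists hold 26 further genes with a named row, 25 higher and 1 lower. The authors had selected these rows on the same samples by p and fold, so neither their direction nor their passing limma (adjusted p at most 0.00256 for the 26) is independent evidence. Over all rows limma with Benjamini-Hochberg adjustment called 14.3% higher and 8.83% lower, 23.2% together, which is no baseline for rows chosen in this way. Of the 164 genes on the 8 lists, 128 have no named row and were not analysed here.

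On the Fanconi list of 30 genes, 9 were named and all were higher. Usp1, which removes ubiquitin from Fancd2, was higher by 1.28 ± 0.10, with mice at 7.23 to 7.62 and pools at 5.94 to 6.27. Faap24, the partner of Fancm, was higher by 1.16 ± 0.07, and Fancg of the core complex by 1.14 ± 0.11. Each of these 3 differences was smaller than those of the 6 list members among the 10 genes.

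On the recombination list of 50 genes, 12 were named and all were higher. Parpbp, which in human cells restrains recombination, was higher by 2.15 ± 0.11, with mice at 8.15 to 8.61 and pools at 6.10 to 6.28. Gen1, a nuclease that cuts joined molecules, was higher by 2.15 ± 0.14, with mice at 8.29 to 8.81 and pools at 6.09 to 6.52. Both differences were close in size to that of Fancd2. Trip13, an ATPase that remodels checkpoint proteins, was higher by 1.77 ± 0.09, the helicase gene Zgrf1 by 1.47 ± 0.17, the Rad54l relative Rad54b by 1.28 ± 0.13 and Hrob, a helicase-loading factor, by 1.18 ± 0.09.

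Of 20 DNA damage checkpoint genes, 8 were named and all were higher (median 1.47). They include Clspn (1.59 ± 0.12), which brings the kinase Atr to its target Chek1, the histone gene H2ax (1.59 ± 0.09), Topbp1 (1.59 ± 0.13), which activates Atr, and the kinase gene Wee1 (1.48 ± 0.10). The effector kinase genes Chek1 and Chek2 had differences of 1.45 ± 0.13 and 1.41 ± 0.17. In translesion synthesis the polymerase gene Polh (1.81 ± 0.11) and the ubiquitin ligase gene Rad18 (1.80 ± 0.15) were named, of 12.

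The end joining list was the only one with genes in both directions. Of its 12 genes 4 were named. Polq, the polymerase of an alternative end joining route, was higher by 1.66 ± 0.13, Rif1 by 1.21 ± 0.16 and Xrcc5, encoding Ku80, by 1.01 ± 0.15. Dclre1c, which encodes the nuclease Artemis, was lower, with a difference of -1.54 ± 0.14, with mice at 7.85 to 8.46 and pools at 9.54 to 9.90. Of the excision repair lists, Neil3 (1.61 ± 0.10) and Fen1 (1.23 ± 0.21) were named of 21 in base excision and single-strand break repair, and 0 of 18 in nucleotide excision repair. Of 10 mismatch repair genes the ligase gene Lig1 (1.74 ± 0.17) was named.

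**Figure D4:**
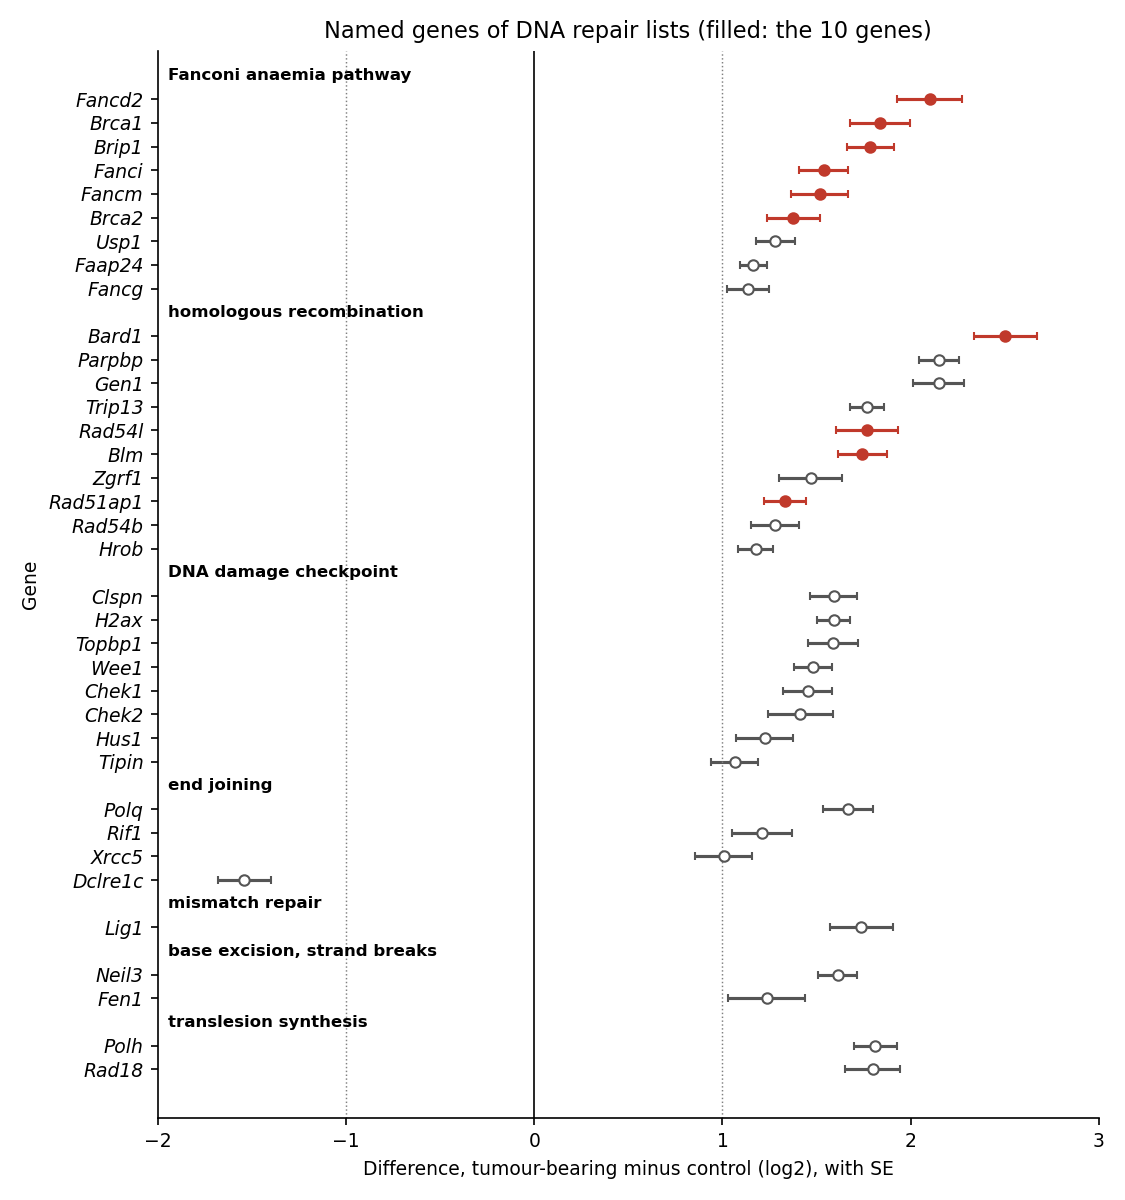
Difference between tumour-bearing mice and control pools (x axis, log2, bars are SE of the limma fit) for the 36 named genes of the repair lists (y axis, each gene shown once), with the 10 genes filled and dotted lines at the authors' 2-fold limit. The 10 genes lie between 1.33 and 2.50, and Dclre1c alone is on the lower side at -1.54.

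The 10 genes lie on 7 chromosomes. Brca1 and Brip1 share chromosome 11, Fancd2 and Rad51ap1 share chromosome 6, and Fanci and Blm share chromosome 7. Between the starts of the paired genes, RefSeq (GRCm38.p6) lists 521, 356 and 44 other gene starts, so none of the 10 are immediate neighbours. The Brca1 window overlaps the start of Nbr1, which runs in the opposite direction. Windows of Rad54l, Brip1 and Fanci also overlap another gene (2510003B16Rik, Brip1os and Rlbp1 respectively).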

How the data were processed

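The authors deposited log2 expression values, normalized between arrays, for 6 single mice and 3 pools. RMA, PLIER, Affymetrix Power Tools and the build mm9 appear in the submitters' processing notes. Their versions are not given in the sources used, nor is the summary method behind the deposited numbers. The log2 scale was read from the values (1.95 to 13.95). Per the series design, the authors' table used p below 0.001 and a 2-fold minimum. Its 964 rows were matched to it by their 9 values at 5 decimals, and names were updated through RefSeq (717 rows by accession, 114 by symbol, 52 by synonym, 81 kept).

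All 31648 rows were fitted with limma 3.58.1 in R 4.3.3 (lmFit, eBayes, two-sided, Benjamini-Hochberg, threshold 0.05). The fit was also run on simulated data with independent samples and equal spread in both groups. That run cannot show how the fit behaves for single mice set against pools. Replicates came from titles, and p-values weigh the difference of group means against the spread between these samples within groups. The main fit took a single variance per row for both groups. Each pool combines 3 animals, so the spread of the controls is not a spread between single mice. For genes with several rows the row of highest mean was used. At least 2 mice shared a value to 5 decimals in 38.0% of rows (3 of the 12 rows here), and the effect of these ties on the spreads was not tested.

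The 10 genes, lists and tests were chosen with earlier results of these data known. Named are the 10 genes, all named Fanconi and recombination genes, up to 4 of each other list and the 5 most alike; further repair genes and markers were named after their values were seen. A planned comparison of protein sequences was not made. Deviations of a mouse and a pool with the same number correlated at 0.09, 0.01 and 0.02, and replicate numbers were therefore not treated as a pairing.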

Additional observations from a re-analysis of the deposited data

Results flagged for a closer look

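Of 101 items examined for a mouse standing apart, 1 was found. The nominal rate would give about 5.05, but it assumes independent rows that were not selected on spread. These rows varied together, and the authors' p-value used the spread within groups, so nothing is read from the count. It was Cebpe, a granulocyte transcription factor gene on the secondary granule list. Mouse 3 stood at 11.34 and the other 5 mice ran from 11.13 to 11.20, so that the gap to the nearest mouse was 0.650 of the whole range, while the pools lay at 9.84 to 10.10. None of the 12 rows of the 10 genes had such a sample, and the same limit holds for them.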

How the results depend on the processing

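Across 166 recomputed differences of the 12 rows, 0 reversed and 5 moved by more than the spread among mice. With a pseudocount of 16 the Bard1 row of lowest level stood at 2.01 and Rad51ap1 at 1.18. The other 3 came from leaving out a control pool, as given for Bard1 and Rad51ap1. The median of the 10 genes was 1.65 to 1.81 with 1 sample left out and 1.57 to 1.88 otherwise, with 1.88 under the replicate block. The count of 7333 changed rows became 4289 when the replicate block was added on 3 mice and 3 pools, and 3812 with a separate variance per group; the other alternatives gave 6611 to 7584, and leaving out 1 sample 6201 to 7113. Rows called at least 2-fold higher (561) numbered 481 to 611 with 1 sample left out and 464 to 605 otherwise, and those lower (560) numbered 541 to 606 and 409 to 622. The shorter E2F core moved the motif count from 2 to 5 of the 9 genes with a window (Bard1, Brca2, Fanci, Fancm and Rad51ap1). Signal over background was not measured, and a low value may therefore be an undetected gene.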
